A study of Mus musculus with 20 samples.

Results

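Dividing cells copy their DNA in S phase and separate the copies in mitosis, and the genes described here carry out or time these steps. The set was a list of 50 mouse genes: 17 that prepare or carry out DNA replication (called S phase members here), 30 that act in G2 phase and mitosis (mitosis members) and the 3 D cyclins, which work earlier, in G1 phase. Members were found by gene symbol, and each of the 50 was present among the 56221 genes of the series and in each of its 3 tables of read counts. All 50 also passed the filter on low counts in each table.

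The RNA came from flow-sorted type 1 conventional dendritic cells (cDC1s) of mice, which take up dying cells and show their antigens to CD8 T cells. The first table held XCR1+CD8a+ cDC1s from WT C57BL/6 mice, either after TLI/ATS (day 15) or without treatment (n = 2 libraries each). TLI/ATS is total lymphoid irradiation combined with anti-thymocyte serum, a conditioning used to induce transplant tolerance. The second table held EpoR+ and EpoR- XCR1+CD8a+ cDC1s of EpoR-tdTomato mice, whose red fluorescent protein reports the erythropoietin receptor gene, all on day 15 of TLI/ATS (n = 2 each). The third table held cDC1s of spleen and of peripheral lymph node from Eporflox/flox mice (controls) and from Epor-Xcr1-Cre cKO mice, in which Cre made in XCR1-expressing cells deletes Epor (n = 3 in each of 4 groups). Control and cKO mice both carry the floxed allele, and no treatment is named for them. The control label names no Cre, so an effect of Cre itself cannot be told apart from the loss of Epor. The sort differed between the tissues: CCR7+XCR1+SIRPa- cells were taken from spleen and migratory XCR1+SIRPa- cells from lymph node. Lymph node against spleen is therefore also a comparison of gates. Ages and the number of animals behind a library are not given in the sources used here, so p-values measure only the spread between these libraries, which may be technical.

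In the cell cycle, D cyclins with CDK4 or CDK6 phosphorylate the retinoblastoma protein and release E2F factors. These switch on cyclin E, the MCM helicase and the enzymes that make nucleotides. Later, cyclins A and B with CDK1, and a second transcriptional wave run by B-MYB, FoxM1 and the MuvB complex, bring about mitosis. Dendritic cells descend from dividing precursors, immature cDC1s of the spleen can still divide, and maturation with expression of CCR7 goes with leaving the cycle.

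Libraries held 40.6 to 77.6 M counts in the first table, 33.7 to 40.1 M in the second and 26.6 to 49.7 M in the third. A count of 3, taken as the floor of detection, was worth between 0.0387 and 0.113 CPM (counts scaled to the total of the library). Of the members 17 share exon bases with another gene, and Kif20a shares 29.3% of its own with Cdc23 on the opposite strand. Of 18 cDC1 markers none was at 0 counts in any library. Their summed level ran from 16759 to 21858 CPM in the first table, from 23293 to 24759 CPM in EpoR- and 11528 to 13026 CPM in EpoR+ cells, and from 6053 to 9183 CPM in the third table. The targeted gene was scarce in the third table: Epor had 0.0280, 0 and 0.169 CPM in spleen controls and 0, 0.0621 and 0 CPM in spleen cKO libraries, all but spleen control replicate 3 at or under the floor, and 0.588, 0.682 and 0.108 CPM in lymph node controls against 0 in all 3 lymph node cKO libraries. Loss of Epor could therefore be seen in lymph node and was not detectable at this depth in spleen. Some libraries of the third table were nearer to the other genotype than to their own group. By the chi-square of gene counts per degree of freedom, spleen control replicate 3 lay at 147 and 122 from the other spleen controls and at 38.0, 49.6 and 27.1 from the spleen cKO libraries; its correlation of log2 CPM across genes was 0.912 and 0.929 with the former and 0.944 to 0.946 with the latter. Lymph node control replicate 2 lay at 75.9 and 83.7 from its group and at 38.4 and 33.8 from cKO replicates 1 and 3, and lymph node cKO replicate 2 at 70.2 and 81.5 from its group and 35.2 from control replicate 3. In the first table the TLI/ATS pair lay at 290 (r = 0.952) and the untreated pair at 15.3 (r = 0.972); the chi-square also grows with depth.

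The members stood at different levels in the 3 tables. In the untreated libraries the mitosis members summed to 1077 and 1078 CPM and the S phase members to 1092 and 1127 CPM. In the spleen controls the mitosis members summed to 299, 298 and 263 CPM and the S phase members to 254, 246 and 220 CPM. Those tables were counted separately, so the levels stand side by side with no test. All sums here are of bulk RNA, in which fewer dividing cells and less RNA per dividing cell cannot be told apart.

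**Figure D1:**
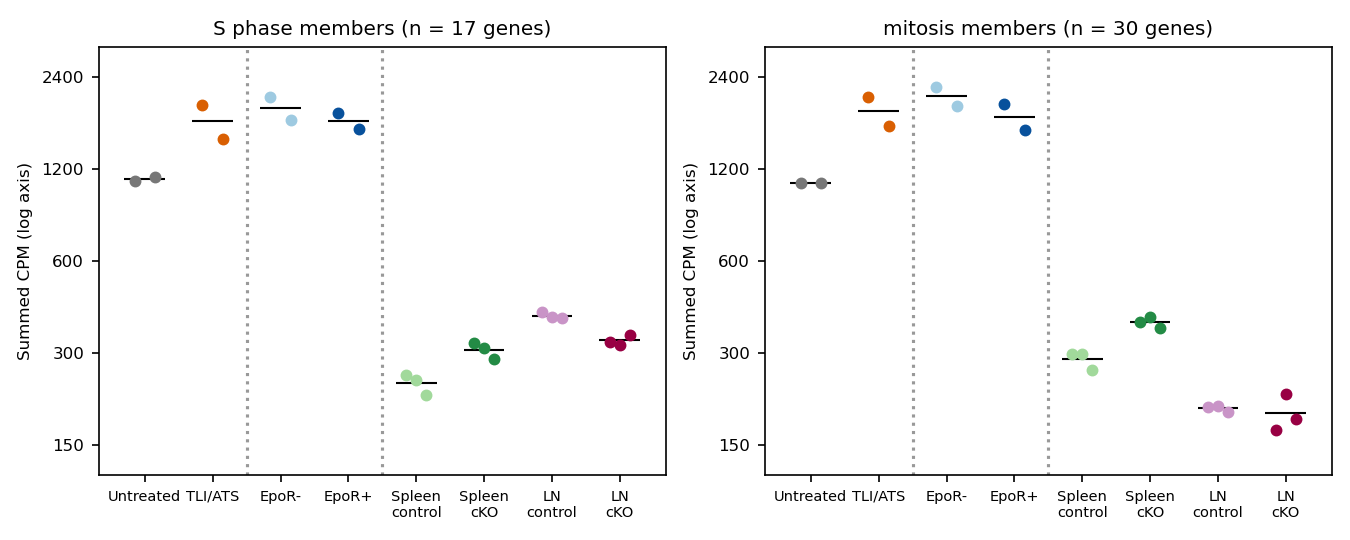
Summed CPM (log axis) of the S phase members (left) and the mitosis members (right) in every library. Points are libraries, short lines are group means and dotted lines part the 3 separately counted tables. In the lymph node controls the S phase members, at 391 to 409 CPM, lie above the spleen controls, while the mitosis members, at 193 to 202 CPM, lie below them.

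Lymph node cDC1s of control mice had more RNA of the replication helicase and less of the mitotic machinery than spleen cDC1s. Of the 50 members, 12 were higher and 20 lower in lymph node in the quasi-likelihood test of edgeR, with p-values adjusted by Benjamini-Hochberg over all genes (adjusted p under 0.05). The background was high, since 41.3% of 17362 genes passed, 21% of them higher and 20.3% lower. The division by role was uneven: among S phase members 9 of 17 were higher and 2 lower, with a median log2 fold change of 0.49, and among mitosis members 2 of 30 were higher and 16 lower, with a median of -0.89. The median of all genes tested was -0.01. The CPM of 13 members lay wholly above and those of 14 wholly below the spleen values, against 34.7% and 16.4% of all genes (51.1% in all). Without spleen control replicate 3, the library nearer to the spleen cKO group, 11 were higher and 15 lower, against 3843 and 3171 of 18518 genes. Without any single library of these 2 groups, 19 of the 32 members passed every time, 7 higher (Ccnd3, Ccne1, Mcm2, Mcm3, Mcm5, Mcm6 and Mcm7) and 12 lower.

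CPM and fold changes do not use the same scale. Scaling by library totals put lymph node controls 0.29 higher (log2) against spleen than the TMM factors behind the fold changes did, and the median of all genes tested differed by 0.23 on the CPM scale. In cKO mice the gap between the scales was 0.24. A CPM difference of that size between the tissues is therefore no difference in the fit.

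Upstream of replication, Ccne1 and Uhrf1 passed and Ccne2 and E2f1 did not. Ccne1, the cyclin that drives CDK2 into S phase, had 3.14, 4.99 and 3.43 CPM in lymph node against 0.645, 1.35 and 1.13 CPM in spleen controls. Every lymph node library lay above every spleen library, although the level was low in both (log2 fold change 1.59 ± 0.41 SE, edgeR adjusted p = 0.0057). Uhrf1, which carries DNA methylation over to the new strand, had 82.7, 68.1 and 73.6 CPM against 49.0, 41.8 and 45.7 CPM, again without overlap (0.42 ± 0.14, edgeR adjusted p = 0.022). Uhrf1 did not pass without spleen control replicate 2 or lymph node control replicate 1. Ccne2 was at -0.21 ± 0.56 and E2f1, the factor that switches on many S phase genes, at -0.15 ± 0.23.

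All 6 genes of the MCM2-7 helicase, the ring that unwinds DNA at the replication fork, were higher in lymph node, by 0.95 to 1.41 on the log2 scale. Mcm6 had 37.6, 45.3 and 46.6 CPM against 17.7, 14.4 and 8.21 CPM in spleen (1.41 ± 0.21, edgeR adjusted p = 6.1e-05). Mcm3 had 51, 43.9 and 39.3 CPM against 17.9, 21.5 and 15.6 CPM (1.00 ± 0.17, edgeR adjusted p = 0.00027). In both genes the lowest lymph node library was more than 1.5 times the highest spleen library. Mcm2 had 25.7, 21.8 and 13.2 CPM against 10.6, 8.38 and 6.09 CPM (1.00 ± 0.26, edgeR adjusted p = 0.0057), with lymph node replicate 3 closest to the spleen values. Mcm7 was higher by 1.04 ± 0.19, Mcm5 by 0.95 ± 0.21 and Mcm4 by 0.95 ± 0.29. Mcm4 had 26.5, 25.9 and 19.3 CPM against 16.9, 7.59 and 6.15 CPM in spleen. It missed the threshold in 4 of the 6 fits that left out a library: without spleen control replicate 2 or 3 and without lymph node control replicate 1 or 2.

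Of the 7 other genes of replication and nucleotide supply 1 was higher, 2 were lower and 4 did not pass. Gmnn, whose protein geminin blocks a new round of licensing after S phase has begun, was lower in lymph node: 21.0, 22.1 and 23.2 CPM against 28.9, 29.9 and 31.9 CPM, without overlap (-0.75 ± 0.14, edgeR adjusted p = 0.00064). Pcna, the sliding clamp of the replicative polymerases, was at 40.3, 37.5 and 42.7 CPM against 36.9, 44.6 and 40.2 CPM. These CPM overlap. The fitted change was -0.31 ± 0.12 (edgeR adjusted p = 0.044), close in size to the 0.29 by which the scales differ between the tissues. The call was lost without 5 of the 6 libraries (all but spleen control replicate 1). Of the enzymes that supply nucleotides, Rrm1, the large subunit of ribonucleotide reductase, was higher (0.49 ± 0.17, edgeR adjusted p = 0.028) but missed the threshold without lymph node control replicate 2 or 3. Its small subunit Rrm2 was at -0.40 ± 0.29 and the thymidylate synthase gene Tyms at 0.19 ± 0.24, neither past the threshold. Cdc6 and Cdc45, which load and start the helicase, were at -0.43 ± 0.94 and 0.94 ± 0.46 and did not pass.

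The lowest fold changes among mitosis members were those of Ube2c and Birc5, with Ccnb2, Hmmr and Kif11 next. Ube2c, the ubiquitin-conjugating enzyme of the anaphase-promoting complex, had 5.64, 6.41 and 5.05 CPM in lymph node against 20.8, 24.7 and 23.7 CPM in spleen controls (-2.31 ± 0.18, edgeR adjusted p = 1.1e-07). Birc5, which encodes survivin of the chromosomal passenger complex, had 7.18, 6.75 and 5.16 CPM against 19.8, 26.0 and 23.4 CPM (-2.15 ± 0.21, edgeR adjusted p = 1.2e-06). Both were low in each lymph node library and did not overlap. Of the 3 passenger complex genes Birc5 alone passed, with Cdca8 at 0.17 and a median of -0.27. Aurka, Smc2 and Prc1, of other roles, were at 0.28, 0.51 and -0.17 and did not pass. Ube2c shares 22.8% of its exon bases with Tnnc2 on the opposite strand, and the counts that make up this table do not use strand.

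Cyclins and kinases of mitotic entry followed in part. Ccnb2, a B cyclin, had 4.66, 3.46 and 1.57 CPM against 15.7, 5.97 and 12 CPM (-2.09 ± 0.40, edgeR adjusted p = 0.00057), and Ccna2, the cyclin of S phase and G2, had 1.94, 3.26 and 3.35 CPM against 9.25, 5.94 and 5.56 CPM (-1.57 ± 0.31, edgeR adjusted p = 0.00073). Neither overlapped between the tissues. Cdk1, the kinase both cyclins activate, was lower by less (-0.67 ± 0.19, edgeR adjusted p = 0.01): 15.7, 13.4 and 18.2 CPM against 20.2, 26.6 and 14.9 CPM, which overlap. It missed the threshold without spleen control replicate 2 or lymph node control replicate 2. Plk1, a kinase of mitotic entry and exit, was at -1.46 ± 0.52 (edgeR adjusted p = 0.034) and missed the threshold without spleen control replicate 1 or 2 or lymph node control replicate 1 or 3. Ccnb1, the other B cyclin, was at -0.46 ± 0.51 and Foxm1, a transcription factor of mitotic genes, at 0.36 ± 0.49, and neither passed.

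Mki67, which encodes the Ki-67 antigen that coats mitotic chromosomes, had 10.6, 16.3 and 12.7 CPM in lymph node and 36, 34.4 and 22.1 CPM in spleen controls (-1.50 ± 0.30, edgeR adjusted p = 0.00086). Top2a, the topoisomerase that untangles sister chromatids, had 10.0, 16.5 and 18.4 CPM against 26.1, 31.8 and 21.9 CPM (-1.11 ± 0.21, edgeR adjusted p = 0.00052). The spleen libraries were all above the lymph node libraries for both. Ncapd2, a condensin subunit, went the other way (0.63 ± 0.24, edgeR adjusted p = 0.046) but missed the threshold without 4 of the 6 libraries (spleen control replicates 1 and 2, lymph node control replicates 1 and 2). Kif20a, a kinesin of cytokinesis, was the other mitosis member that was higher (2.15 ± 0.81, edgeR adjusted p = 0.043): it had 1.89, 2.46 and 3.19 CPM against 0, 0.526 and 0.818 CPM, missed the threshold without spleen control replicate 2 or any single lymph node control, and is the gene that shares exon bases with Cdc23.

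Of 4 spindle genes 3 were lower. Kif11, the motor that pushes spindle poles apart, had 1.13, 1.83 and 1.51 CPM against 5.86, 6.01 and 3.24 CPM (log2 fold change -2.03 ± 0.38), and the microtubule-binding protein genes Hmmr and Nusap1 were at -2.07 ± 0.41 and -1.32 ± 0.28. The spindle assembly factor Tpx2, at -0.52 ± 0.33, did not pass. At the kinetochore, where chromosomes attach to the spindle, 2 of 6 were lower. Cenpa, the histone that marks the centromere (-0.93 ± 0.25), missed the threshold without spleen control replicate 3, and Cenpf (-0.98 ± 0.36) without that library or any single lymph node control, and the checkpoint kinase genes Bub1, Bub1b and Ttk did not pass. In anaphase and cytokinesis 4 of 6 were lower: Ube2c, Cdca3 (-1.33 ± 0.31), Kif23 (-1.24 ± 0.38, lost without lymph node control replicate 1) and Cdc20, which turns on the anaphase-promoting complex (-0.86 ± 0.30). Cdc20 missed the threshold without spleen control replicate 1 or 3 and without lymph node control replicate 1 or 3.

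**Figure D2:**
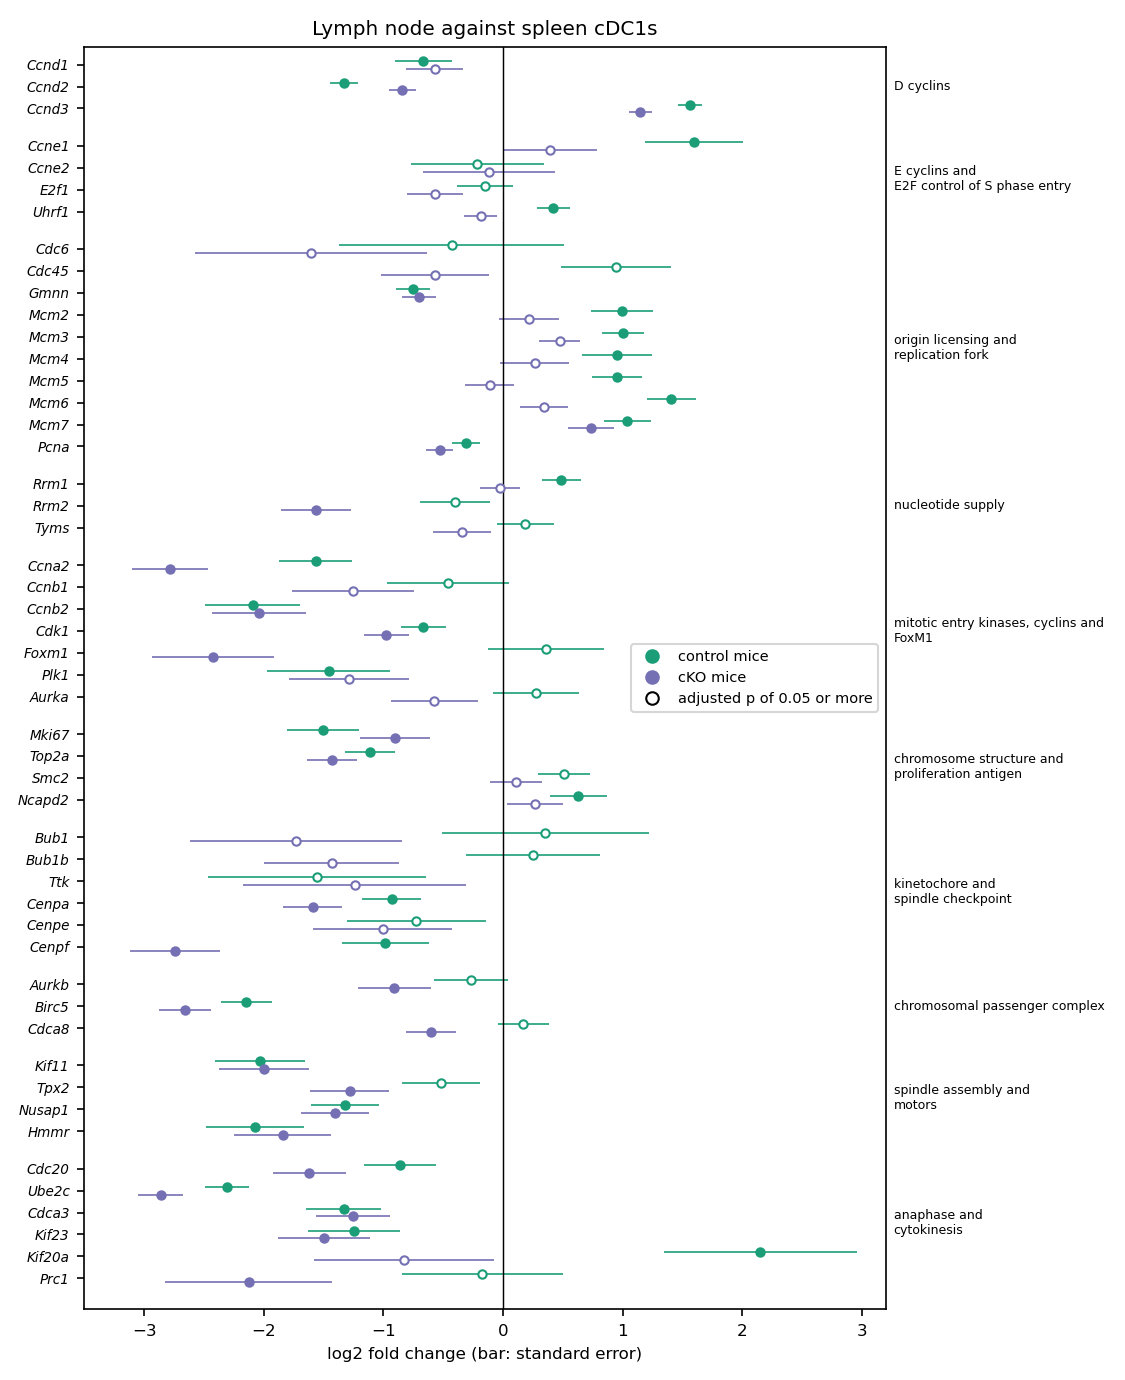
Log2 fold change of every member in lymph node against spleen cDC1s, in control mice (green) and cKO mice (violet), ordered by role. Points are fitted values, bars their standard errors, and open points have an adjusted p of 0.05 or more. The 6 MCM genes lie between 0.95 and 1.41 in control mice, and Ube2c, Birc5, Ccnb2, Hmmr and Kif11 lie between -2.31 and -2.03.

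The letters of 3 regulatory motifs were counted around the start of the members. Promoter windows of 250 bases before to 50 after the start were available for 40 of the 50 members (RefSeq, GRCm38.p6) and were searched on both strands. The CHR, bound by the MuvB complex at many mitotic genes, was taken as TTTGAA and also as its variant TTCGAA. The E2F site was taken in 4 forms, namely TTCCCGC first, then TTGGCGC as a further form, TTCGCGC as another and TTGCCGC as the last. The CCAAT box, bound by NF-Y, was taken by its 5 letters. A CHR match was present in 21 of 25 mitosis members with a window, 3 of 11 S phase genes of the replication and nucleotide groups and 19.2% of all 32851 windows. An E2F match was present in 5 of those 25, 7 of those 11 and 9.57% of all windows. A CCAAT match was present in 33 of the 40 members and 37.4% of all windows. Short motifs occur by base composition too, and a match is not a measured binding site.

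The stretches below are the 110 bases before the start of 4 mitosis members that were lower in lymph node, with CHR matches in capitals, and then of 3 S phase members that were higher, with E2F matches in capitals. They show where the motif letters lie relative to the start, which follows the last base. Positions are those of GRCm38.p6: Kif11, chr19:37376272-37376381 on the plus strand; Top2a, chr11:99024190-99024299 on the minus strand; Cdc20, chr4:118437344-118437453 on the minus strand; Cdk1, chr10:69352913-69353022 on the minus strand. The others are Mcm6, chr1:128359706-128359815 on the minus strand, Rrm1, chr7:102441585-102441694 on the plus strand, and Uhrf1, chr17:56303227-56303336 on the plus strand.
Kif11: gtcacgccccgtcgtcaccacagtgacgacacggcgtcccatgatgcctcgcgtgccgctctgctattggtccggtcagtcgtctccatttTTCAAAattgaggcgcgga
Top2a: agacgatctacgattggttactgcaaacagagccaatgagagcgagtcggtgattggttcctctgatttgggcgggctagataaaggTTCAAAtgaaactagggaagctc
Cdc20: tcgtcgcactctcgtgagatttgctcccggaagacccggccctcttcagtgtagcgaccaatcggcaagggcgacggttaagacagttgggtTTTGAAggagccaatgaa
Cdk1: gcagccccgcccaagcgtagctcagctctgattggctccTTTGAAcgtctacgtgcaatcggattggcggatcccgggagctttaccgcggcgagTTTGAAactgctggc
Mcm6: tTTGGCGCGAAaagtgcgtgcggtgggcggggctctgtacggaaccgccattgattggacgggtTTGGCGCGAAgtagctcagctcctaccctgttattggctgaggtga
Rrm1: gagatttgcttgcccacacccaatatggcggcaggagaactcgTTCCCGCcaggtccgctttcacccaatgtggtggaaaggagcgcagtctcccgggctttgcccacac
Uhrf1: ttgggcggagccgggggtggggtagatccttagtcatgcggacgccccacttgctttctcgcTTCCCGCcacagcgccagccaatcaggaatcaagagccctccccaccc

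In Kif11, Top2a, Cdc20 and Cdk1 a CHR match begins 19, 23, 18 and 15 bases before the start, and Cdk1 has another 71 bases before it. Top2a has further CHR matches in its window, at -179, -140 and -120 bases from the start, outside the stretch shown. In the stretch shown, Mcm6 holds the E2F letters 4 times in 2 overlapping pairs, in which matches on opposite strands share 4 of their 7 bases, while Rrm1 and Uhrf1 each hold them once. Across the mitosis members, 19 of 29 CHR matches began between 40 bases before and 50 after the start.

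By direction in control mice, 13 of the 16 members that were lower in lymph node and have a window held a CHR match and 3 an E2F match. Of the 10 that were higher, 3 held a CHR match and 7 an E2F match, and of the 14 that did not pass the counts were 8 and 3. This division largely repeats that of mitosis and S phase. Within the mitosis members the median log2 fold change was -0.98 for the 21 with a CHR match and -1.02 for the 4 without.

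**Figure D3:**
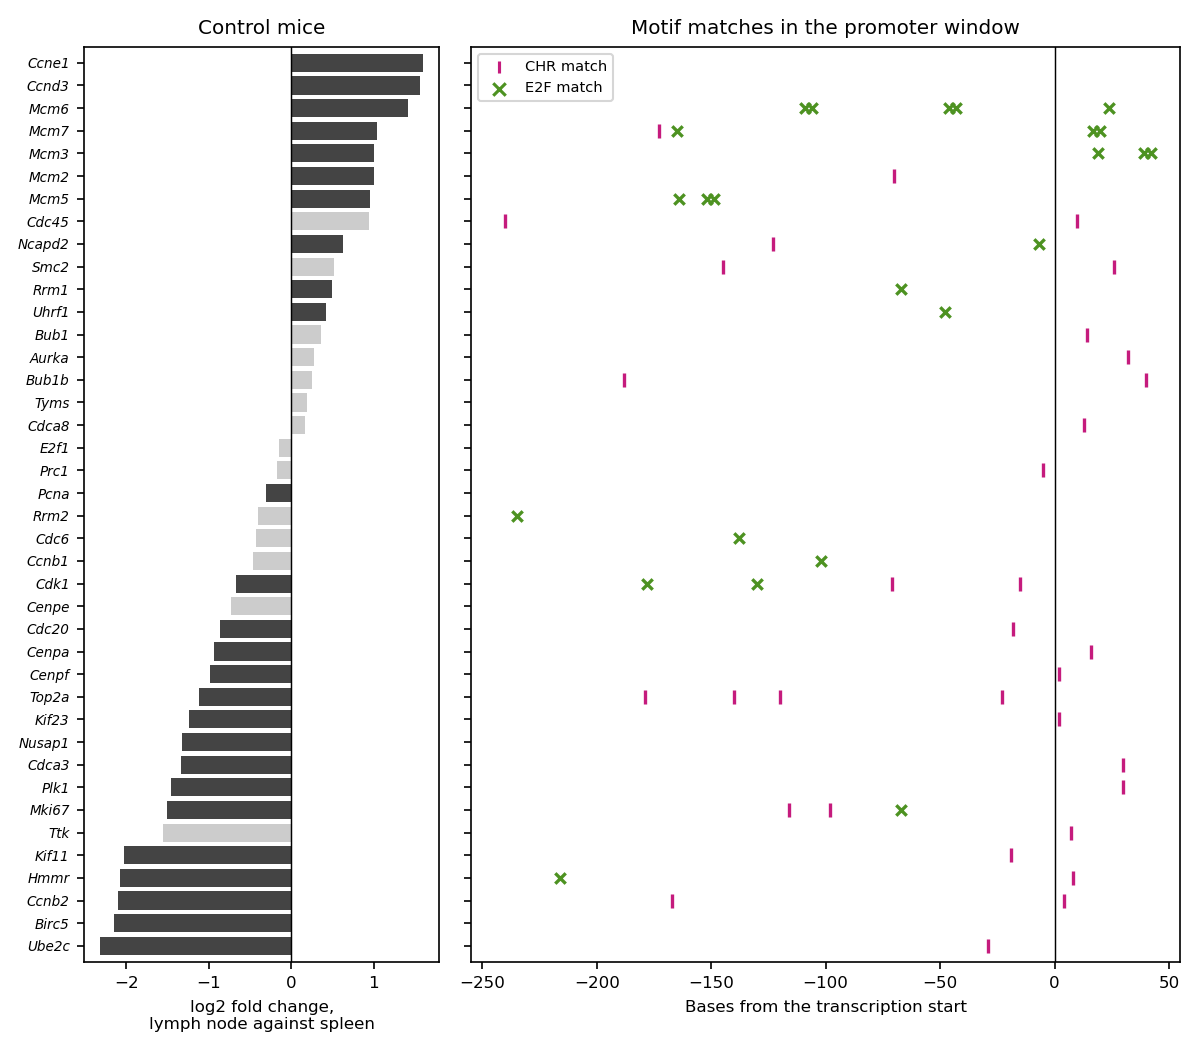
Left, log2 fold change in lymph node against spleen of control mice for the 40 members with a promoter window, dark where the adjusted p was under 0.05. Right, positions of CHR (bars) and E2F (crosses) matches in bases from the start. E2F matches lie in 7 members with positive and 6 with negative changes, and CHR matches in 9 and 15.

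In cKO mice most mitosis members were again lower in lymph node, and 1 of the 6 MCM genes was higher. A difference between the genotypes was not shown: the interaction passed no member in edgeR, and the smallest adjusted p of an MCM gene in it was 0.14. By the same edgeR test 2 members were higher and 24 lower, against 14.1% and 15.3% of 17362 genes (29.4% in all). Of the mitosis members 20 of 30 were lower and 0 higher, with a median log2 fold change of -1.42. The CPM of 8 members lay wholly above and those of 26 wholly below spleen, against 35.2% and 17.8% of all genes (53.1% in all). Ube2c had 4.86, 4.09 and 4.43 CPM in lymph node and 28.9, 28.7 and 24.6 CPM in spleen (-2.86 ± 0.19, edgeR adjusted p = 2.0e-08). Ccna2 had 1.76, 1.58 and 2.03 CPM against 10.0, 11.3 and 10.0 CPM (-2.78 ± 0.32, edgeR adjusted p = 8.1e-06), and the kinetochore gene Cenpf had 1.13, 1.79 and 2.88 CPM against 10.6, 10.8 and 11.6 CPM (-2.74 ± 0.38, edgeR adjusted p = 4.8e-05). For each of these 3 genes the highest lymph node library was under every spleen library.

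Birc5 was at -2.66 ± 0.22 and Foxm1 at -2.42 ± 0.51 in cKO mice, both past the threshold, the latter with 1.31, 0.751 and 1.43 CPM in lymph node against 8.53, 4.22 and 3.23 CPM in spleen. Of the S phase members Rrm2 (-1.56 ± 0.29), Gmnn (-0.70 ± 0.14) and Pcna (-0.53 ± 0.12) were lower. Among the 6 MCM genes Mcm7 alone passed (0.74 ± 0.19, edgeR adjusted p = 0.0095), with Mcm2 at 0.22 ± 0.25 and Mcm6 at 0.34 ± 0.20. Ccne1, at 0.39 ± 0.39, and Ccnb1, at -1.25 ± 0.51, did not pass. Without any single library of these groups, 22 of the 26 passed every time; Mki67 (-0.90 ± 0.29), Aurkb, Cdca8 and Prc1 were the 4 that did not, each lost when spleen cKO replicate 1 or lymph node cKO replicate 1 was left out, among others.

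Summed levels put the same contrast in CPM. The S phase members summed to 409, 394 and 391 CPM in lymph node controls against 254, 246 and 220 CPM in spleen controls, and to 327, 319 and 345 CPM against 323, 311 and 287 CPM in cKO mice. The cKO groups overlapped, and the direction there depends on the scale: the log2 ratio of means was 0.11 by library totals and -0.14 with TMM factors. The mitosis members summed to 199, 202 and 193 CPM in lymph node controls against 299, 298 and 263 CPM in spleen controls, and to 168, 221 and 183 CPM against 379, 393 and 363 CPM in cKO mice, with no overlap in either genotype.

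Other cells' transcripts also differed between the tissues. The 17 erythroid markers summed to 83.0 to 128 CPM in spleen and 7.03 to 11.2 CPM in lymph node, where 8 to 11 of them were at 0. The 14 plasma cell markers summed to 2104 to 5262 CPM in spleen and 426 to 483 CPM in lymph node, and the 13 neutrophil and myeloid precursor markers to 41.8 to 78.9 CPM and 0.76 to 2.37 CPM, with 7 to 9 at 0 in lymph node. The 18 T cell markers were the reverse, at 106 to 135 CPM and 358 to 463 CPM, and the 17 markers of CCR7+ mature dendritic cells stood at 24156 to 28724 CPM and 46520.5 to 50221 CPM. Their part in the result was not tested. A further fit left out the markers of other cells and all immunoglobulin and T cell receptor segments, and kept the CCR7+ and cDC1 markers. In it 32 members passed in control mice and 26 in cKO mice, as in the full fit, against 6944 and 4842 of 17067 genes. Leaving genes out does not take away cell cycle reads of other cells, so these counts do not bear on their part.

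Among related genes outside the 50, listed by function with earlier results of these data known, the counts stand beside 21% higher and 20.3% lower over all genes in control mice. There 15 of 40 further replication genes were higher and 4 lower in lymph node, among them Gins3 (2.12 ± 0.15), Pold2 (1.66 ± 0.18) and Pold1 (1.42 ± 0.17), of the helicase and the delta polymerase, upward, and the thymidine kinase gene Tk1 (-1.24 ± 0.16) and the dUTPase gene Dut (-1.05 ± 0.18) downward. Of 55 further mitotic genes tested 3 were higher and 13 lower, the latter near the share of all genes, with Stmn1, a microtubule regulator, at -1.63 ± 0.13, Cks2, a small partner of CDK1, at -1.28 ± 0.20 and Pbk, a mitotic kinase, at -2.78 ± 0.44. Brakes of the cycle went both ways, 11 of 30 higher and 9 lower: the pocket protein gene Rbl2 was higher by 1.6 ± 0.17, while the CDK inhibitor gene Cdkn1b and the kinase gene Wee1 were lower, at -1.39 ± 0.19 and -1.35 ± 0.16. Of 21 G1 kinases and growth drivers 3 were higher and 6 lower, with Myc at 2.23 ± 0.54 and its relative Mycl at -1.73 ± 0.16. In cKO mice 7 of the 40 replication genes were higher and 5 lower, and 2 of the 55 mitotic genes were higher and 18 lower, beside 14.1% and 15.3% over all genes.

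The D cyclins, which couple growth signals to the cycle, each had a pattern of their own. Ccnd3 had 432, 401 and 406 CPM in lymph node controls against 114, 108 and 118 CPM in spleen controls, and 398, 353 and 416 CPM against 150, 155 and 141 CPM in cKO mice. Lymph node was above spleen in every library, by 1.56 ± 0.10 log2 in control mice (edgeR adjusted p = 9.4e-09) and 1.15 ± 0.10 in cKO mice (edgeR adjusted p = 3.4e-07). Ccnd2 was the reverse, with 57.7, 50.8 and 54.3 CPM in lymph node and 104, 128 and 103 CPM in spleen controls (-1.33 ± 0.12, edgeR adjusted p = 3.0e-07), and -0.84 ± 0.11 in cKO mice. Ccnd1 was lower in lymph node controls (-0.66 ± 0.24, edgeR adjusted p = 0.038) on overlapping CPM of 39.9, 30.2 and 29.2 against 23.3, 59.1 and 45.9, and missed the threshold without spleen control replicate 2 or 3 or lymph node control replicate 2 or 3; in cKO mice it was at -0.57 ± 0.24 and did not pass.

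Counted per kb of exon, so that the genes can be set beside each other, Ccnd3 made up 78.7% ± 1.37 (SD, n = 3) of the D cyclin level in lymph node controls and 38.8% ± 6.47 (SD, n = 3) in spleen controls. Ccnd1 led in the second table, with 72.0% ± 2.18 (SD, n = 2) in EpoR- and 52.7% ± 2.63 (SD, n = 2) in EpoR+ cells. It shares 23.4% of its exon bases with LTO1 on the opposite strand, and the counts of that table do not use strand. In untreated cDC1s Ccnd1 made up 52.7% ± 0.638 and Ccnd3 36.1% ± 1.69 (SD, n = 2), and after TLI/ATS Ccnd3 was ahead, with 53.6% ± 0.938 against 42.0% ± 1.80 (SD, n = 2).

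**Figure D4:**
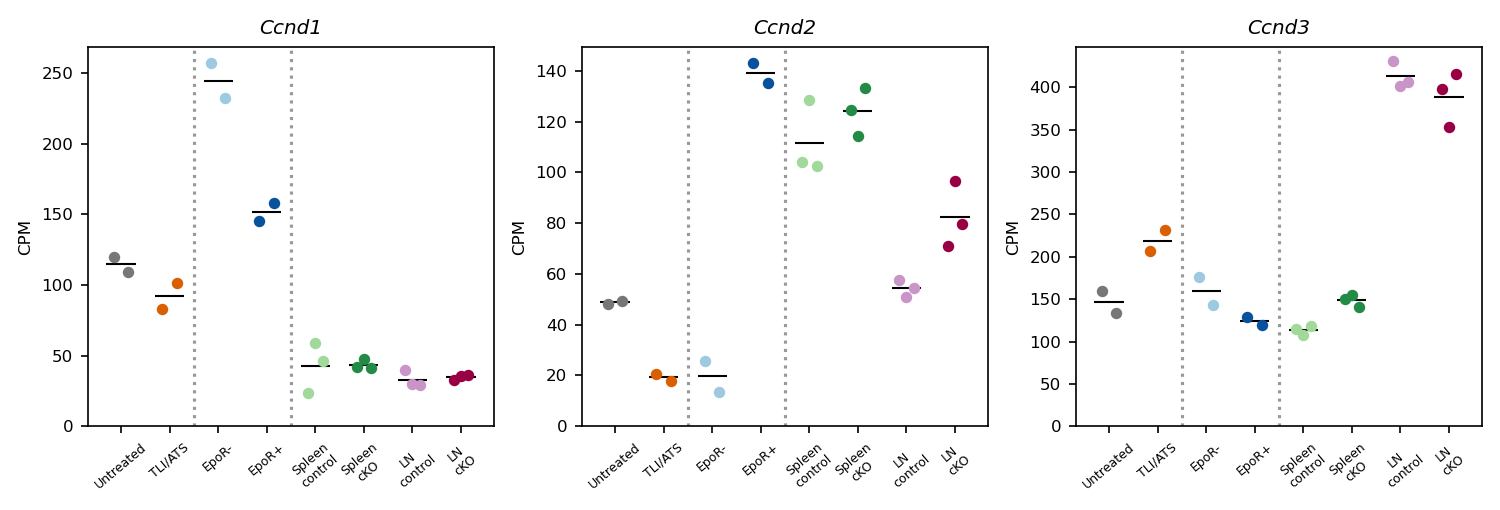
CPM of Ccnd1, Ccnd2 and Ccnd3 in every library of the 8 groups. Points are libraries, short lines are group means, and dotted lines part the 3 separately counted tables. Ccnd2 stands at 143 and 135 CPM in the EpoR+ libraries and at 25.7 and 13.6 CPM in the EpoR- libraries, and Ccnd3 is above 350 CPM only in the 6 lymph node libraries.

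No member passed the threshold in spleen cDC1s of cKO mice. By edgeR's quasi-likelihood test 0 of 50 passed after Benjamini-Hochberg adjustment, against 0.611% of 17362 genes. An unadjusted p under 0.05 was found for 14, against 2255 of the 17362 genes. DESeq2 passed 8 members, against 647 of 36619 genes. Those 36619 hold every gene with any count, while all members passed the filter on low counts, so that share is not like the one of edgeR. The values lay mostly on the higher side: 43 of 50 fitted changes were above 0 with a median of 0.34, against 0.00 for all genes, and in 20 members every cKO library was above every control library, against 11.7% of all genes, while in 0 members every cKO library was below, against 5.44%. Without spleen control replicate 3, the library nearer to the cKO group, the test passed 4 members, against 379 of 18518 genes. Over all genes the full fit passed 106 of 17362. The 4 members were Ccnd3 at 0.45 ± 0.09, Cenpf at 1.68 ± 0.39, Cdca8 at 0.93 ± 0.22 and Ncapd2 at 1.04 ± 0.24 (edgeR adjusted p from 0.028 to 0.044). Without that library 43 changes were above 0 and the median was 0.44, against 0.05 for all genes. Without spleen control replicate 2 the test passed 1 member, against 93 of 18508 genes, and without each of the other 4 libraries 0.

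Cenpf had 10.6, 10.8 and 11.6 CPM in spleen cKO libraries and 3.56, 3.46 and 5.22 CPM in controls (1.37 ± 0.36, edgeR adjusted p = 0.11). Ccne1 had 3.16, 2.92 and 2.24 CPM against 0.645, 1.35 and 1.13 CPM (1.37 ± 0.41, edgeR adjusted p = 0.16), and Aurkb, the kinase of the chromosomal passenger complex, had 9.9, 11 and 7.01 CPM against 4.65, 3.49 and 4.82 CPM (1.05 ± 0.31, edgeR adjusted p = 0.16). None of the 3 overlapped between genotypes. Uhrf1 was at 0.50 ± 0.14 (edgeR adjusted p = 0.12), Ccnd3 at 0.34 ± 0.10 (edgeR adjusted p = 0.14) and Mcm6 at 0.67 ± 0.21 (edgeR adjusted p = 0.18). Ttk had the lowest value, -1.50 ± 0.92, which rests on 6.93 CPM in spleen control replicate 1 against 0.526 and 0.310 CPM in the other controls: without that library it was 1.10. Beside these values, the plasma cell markers summed to 4731 to 5262 CPM in spleen cKO and 2104 to 2519 CPM in spleen control libraries and the neutrophil and myeloid precursor markers to 70.9 to 78.9 CPM and 41.8 to 44.1 CPM. Their part in the result was not tested.

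In lymph node 1 member passed between cKO and control mice. Ccnd2 had 71.0, 96.5 and 79.5 CPM in cKO and 57.7, 50.8 and 54.3 CPM in control libraries, without overlap (0.61 ± 0.11, edgeR adjusted p = 0.023), where 0.455% of 17362 genes passed. It missed the threshold in 5 of the 6 fits that left out a library (each lymph node control and cKO replicates 2 and 3), with adjusted p from 0.055 to 0.11, and in the fit with only these 6 libraries (adjusted p = 0.083). The median over the members was -0.15, and 35 of 50 fitted changes were below 0. Every cKO library was below every control library in 8 members and above in 3, against 8.85% and 7.07% of all genes.

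The 6 MCM genes ranged from -0.54 to -0.15, with Mcm4 at -0.54 ± 0.29 and Mcm7 at -0.48 ± 0.19, and none passed. Foxm1 had 1.31, 0.751 and 1.43 CPM in cKO and 5.49, 3.65 and 5.0 CPM in control libraries of the lymph node (-1.99 ± 0.51, edgeR adjusted p = 0.17), which do not overlap. Cdc6 was at 0.422, 0 and 3.0 CPM against 2.28, 2.73 and 3.03 CPM (-1.17 ± 0.96). The 0 counts in cKO replicate 2 set it under the floor of that library. The change was -0.59 without that library and -3.61 without cKO replicate 3, neither past the threshold.

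Whether the effect of the deletion differed between the tissues was tested as an interaction. No member passed with edgeR, against 0.317% of 17362 genes. An unadjusted p under 0.05 was found for 17, against 2173 of the 17362 genes. DESeq2 passed 4 members, against 507 of 36619 genes. The fitted differences, lymph node effect minus spleen effect, had a median of -0.53 against 0.01 for all genes. Foxm1 was at -2.78 ± 0.70 (edgeR adjusted p = 0.12), Mcm6 at -1.07 ± 0.29 (edgeR adjusted p = 0.14), Mcm5 at -1.06 ± 0.29 (edgeR adjusted p = 0.15) and Cenpf at -1.76 ± 0.51 (edgeR adjusted p = 0.17). In the fit without spleen control replicate 2 the test passed 1 member, against 62 of 18508 genes. Without spleen control replicate 3 it passed none, against 222 of 18518 genes (median -0.61). Of the 146 genes tested in the 4 lists of related genes, 0 passed in either tissue or in the interaction in edgeR. At an unadjusted p under 0.05 there were 20 in spleen, 15 in lymph node and 24 in the interaction. Over all 17362 genes there were 2255, 1304 and 2173. DESeq2 called 6, 1 and 5 of the related genes, against 647, 204 and 507 of 36619 genes.

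After TLI/ATS nearly all members stood higher than in untreated cDC1s, few of them past the threshold. Fitted changes were above 0 for 48 of 50 members, with a median of 0.84 against 0.02 for all genes. In 47 members both TLI/ATS libraries lay above both untreated libraries, against 14.6% of all genes, and in 2 members, Ccnd1 and Ccnd2, both lay below, against 31.4%. By edgeR's test 3 members were higher and 1 lower after Benjamini-Hochberg adjustment, against 0.499% and 2.20% of 17236 genes (2.7% in all). An unadjusted p under 0.05 was found for 46 members, against 2705 of the 17236 genes. The count past the adjusted threshold rests on how the spread is estimated: DESeq2 called 38 members, against 1324 of 26600 genes. Leaving out a library leaves a lone one in its group, assumed to vary like the other group, so only median changes are given. They were 0.71 and 0.94 without TLI/ATS replicate 1 and 2, and 0.80 and 0.85 without untreated replicate 1 and 2.

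Ccnb2 had 114 and 92.3 CPM after TLI/ATS against 47.3 and 51.4 CPM untreated (1.18 ± 0.17, edgeR adjusted p = 0.038). Cdc20 had 93.0 and 84.7 CPM against 45.6 and 48.4 CPM (1.04 ± 0.16, edgeR adjusted p = 0.046), and Rrm2 had 174 and 161 CPM against 90.7 and 90.8 CPM (1.01 ± 0.16, edgeR adjusted p = 0.046). In these 3 members the treated pair lay well above the untreated pair. Ccnd2 fell, from 48.2 and 49.4 CPM to 20.5 and 17.9 CPM (-1.22 ± 0.17, edgeR adjusted p = 0.037). Cdc20 and Rrm2 were just over the threshold (adjusted p = 0.054 each) when genes of other cells were left out.

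Other members stood higher after TLI/ATS without passing. Cdk1 had 78.5 and 85.3 CPM against 43.5 and 39.97 CPM (1.10 ± 0.18, edgeR adjusted p = 0.055), Mki67 82.1 and 60.1 CPM against 54.1 and 46.6 CPM (0.61 ± 0.20) and Top2a 143 and 92.2 CPM against 72.4 and 67.0 CPM (0.86 ± 0.22). Mcm2 had 153 and 103 CPM against 80.8 and 85.5 CPM (0.73 ± 0.21), and Pcna 155 and 179 CPM against 127 and 126 CPM (0.53 ± 0.19). In all 5 the treated pair was above the untreated pair, and none passed. Of the 50 members 38 were higher in TLI/ATS replicate 1 than in replicate 2, with a median ratio of 1.31, against 22 higher in untreated replicate 1 (ratio 0.986).

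The D cyclins had a median of -0.18. The medians of the other role groups ran from 0.72 for origin licensing and the fork to 1.00 for mitotic entry, and the lowest single value in them was that of Pcna. Ccne2, the second cyclin E, was at 1.23 ± 0.20 (edgeR adjusted p = 0.052), Cdc6 at 1.08 ± 0.19 (edgeR adjusted p = 0.066) and Kif20a at 1.39 ± 0.37 (edgeR adjusted p = 0.15). Ccnd3 was at 0.71 ± 0.20, with 206 and 232 CPM against 159 and 134 CPM, and Ccnd1 at -0.18 ± 0.21, which was 0.03 without TLI/ATS replicate 1. Summed, the S phase members stood at 1936 and 1507 CPM against 1092 and 1127 CPM, and the mitosis members at 2059 and 1655 CPM against 1077 and 1078 CPM. Of the 145 genes tested in the lists of related genes edgeR called 0, with 69 at an unadjusted p under 0.05, against 2705 of 17236 genes. DESeq2 called 37 of the related genes, against 1324 of 26600 genes. The medians were 0.86 for 55 mitotic genes, 0.53 for 40 replication genes, 0.25 for 21 G1 kinases and growth drivers and 0.07 for 29 brakes of the cycle.

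Markers of other cells moved with the treatment. The 18 T cell markers summed to 957 to 962 CPM in untreated and 27.7 to 42.2 CPM in TLI/ATS libraries, with at most 1 at 0, and the 14 B cell markers to 820 to 821 CPM and 63.0 to 87.0 CPM. The 15 macrophage markers were the reverse, at 193 to 209 CPM and 1084 to 1667 CPM, as were the 17 erythroid markers, at 250 to 257 CPM and 1332 to 1533 CPM. Their part in the result was not tested.

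Among cDC1s after TLI/ATS, EpoR+ cells had more Ccnd2 RNA and less Ccnd1, Kif23 and Foxm1 RNA than EpoR- cells, and the summed levels of the fractions overlapped. By edgeR's test 1 member was higher and 3 lower in EpoR+ cells, against 11.9% and 4.75% of 15627 genes (16.7% in all), a share below that of all genes. Ccnd2 had 143 and 135 CPM in EpoR+ and 25.7 and 13.6 CPM in EpoR- libraries (2.80 ± 0.34, edgeR adjusted p = 0.0094). Ccnd1, which shares exon bases with LTO1, had 145 and 158 CPM against 257 and 232 CPM (-0.71 ± 0.11, edgeR adjusted p = 0.012). Both were far apart between the fractions, in opposite directions.

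Kif23, a motor of the central spindle, had 84.9 and 78.2 CPM against 115 and 126 CPM (-0.58 ± 0.11, edgeR adjusted p = 0.024) and Foxm1 38.7 and 38.6 CPM against 54.7 and 58.1 CPM (-0.56 ± 0.12, edgeR adjusted p = 0.028). Leaving out a library leaves a lone one in its group here too, so only fitted changes are given. They ran from 2.41 to 3.34 for Ccnd2 and from -0.79 to -0.62 for Ccnd1. For Kif23 they ran from -0.65 to -0.51 and for Foxm1 from -0.60 to -0.53. The median over the members was -0.34 without EpoR+ replicate 1 and -0.03 without EpoR+ replicate 2. Whether these calls hold without a library cannot be judged from such fits.

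The median of the 50 was -0.17 against 0.02 for all genes, with 3 members wholly above and 14 wholly below in EpoR+ cells, against 33% and 25.1% of all genes. Ccne1 had 20.9 and 24.0 CPM against 15.2 and 10.1 CPM (0.81 ± 0.25, edgeR adjusted p = 0.089), and Ccnd3 129 and 120 CPM against 176 and 143 CPM (-0.38 ± 0.14, edgeR adjusted p = 0.15). Mki67 had 230 and 215 CPM against 280 and 255 CPM (-0.28 ± 0.11), Top2a 257 and 201 CPM against 339 and 285 CPM (-0.46 ± 0.16), and neither passed. The kinetochore motor gene Cenpe was at -0.43 ± 0.12 (edgeR adjusted p = 0.069). The S phase members summed to 1828 and 1624 CPM in EpoR+ and 2056 and 1731 CPM in EpoR- libraries, and the mitosis members to 1948 and 1610 CPM and 2223 and 1927 CPM. Both sums overlapped between the fractions. In each fraction replicate 1 was the higher library for most members, 46 of 50 in EpoR+ and 45 of 50 in EpoR-, with median ratios of 1.21 and 1.22.

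Of related genes, Skp2, which marks CDK inhibitors for degradation, was higher in EpoR+ cells (2.25 ± 0.21, edgeR adjusted p = 0.0018), as was the condensin gene Ncapg2 (0.67 ± 0.16). Mycl (-1.06 ± 0.15), Btg2 (-0.74 ± 0.15), Cdc25a (-0.49 ± 0.12) and Smc4 (-0.48 ± 0.10) were lower. These 6 were all that passed in edgeR of 147 related genes tested, against 2606 of 15627 over all genes. DESeq2 called 13 of the related genes, against 3356 of 24329 genes. The 15 macrophage markers summed to 22708 to 23186 CPM in EpoR+ and 292 to 301 CPM in EpoR- libraries and the 17 erythroid markers to 2396 to 2713 CPM and 262 to 350 CPM. None of these was at 0 in any of the libraries, and 16 of the 18 cDC1 markers were lower in EpoR+ cells by the same test. Their part in the result was not tested. A further fit left out the markers of other cells, macrophage and erythroid among them, with the receptor segments, and kept the cDC1 markers. It again passed 4 members, against 2630 of 15259 genes, but it left any cell cycle reads of other cells in the counts.

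**Figure D5:**
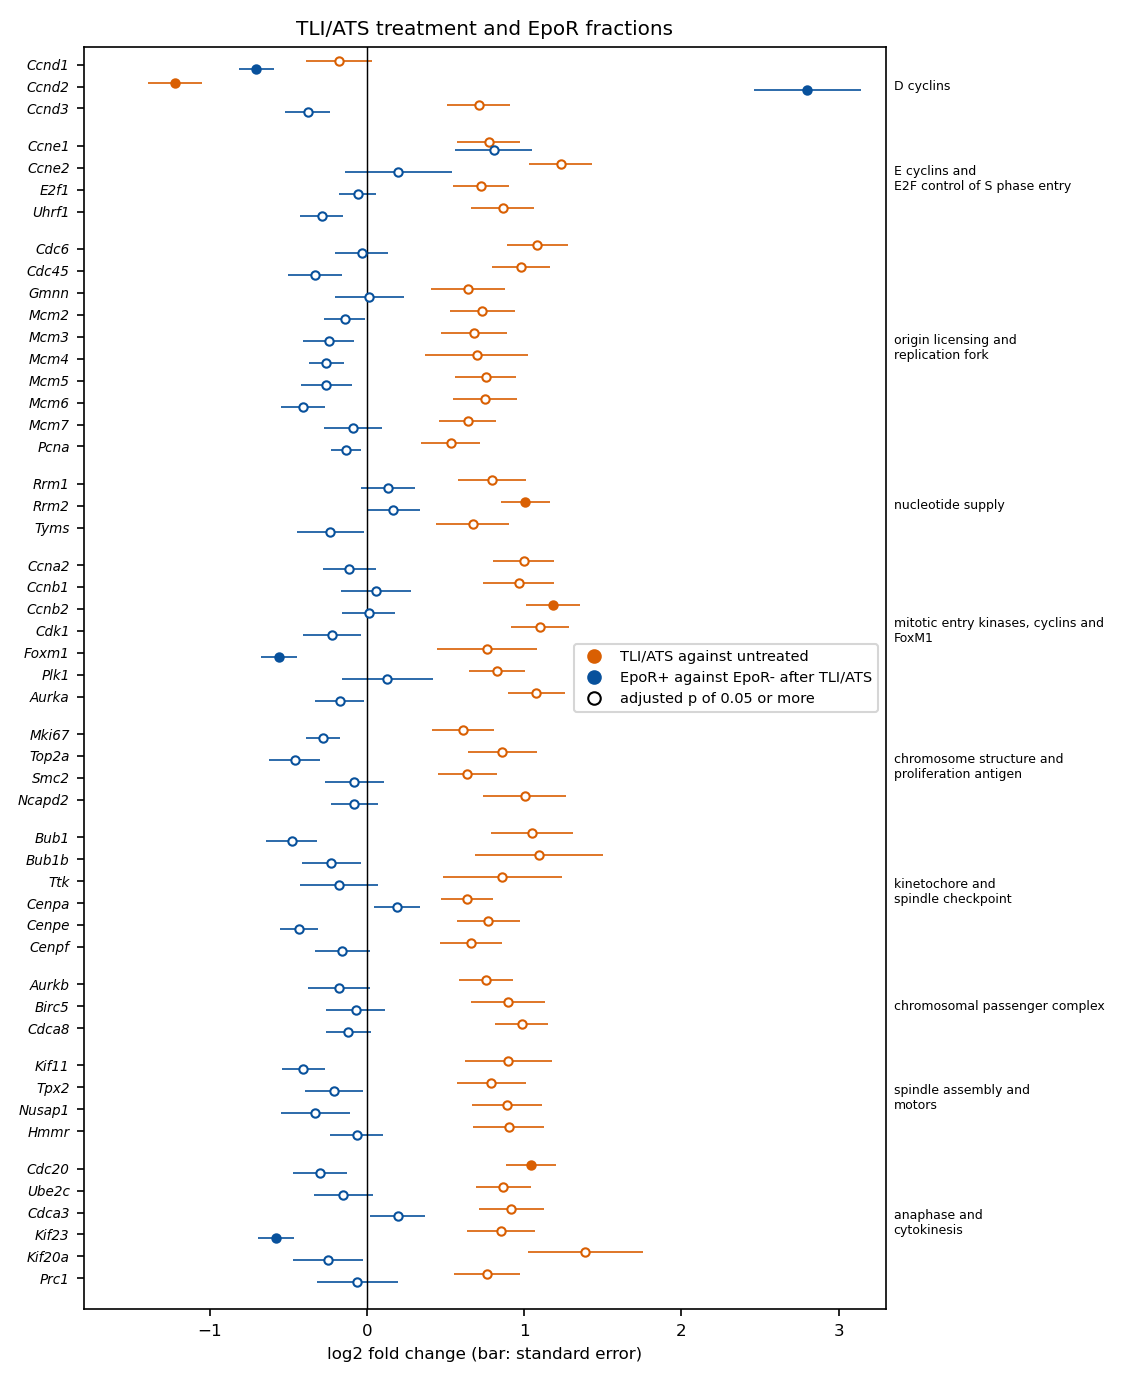
Log2 fold change of every member after TLI/ATS against untreated (orange) and in EpoR+ against EpoR- cDC1s (blue), ordered by role. Points are fitted values, bars their standard errors, and open points have an adjusted p of 0.05 or more. Nearly all orange points lie between 0.53 and 1.39, the blue points lie around -0.17, and Ccnd2 lies at -1.22 and 2.80.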

How the data were processed

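The deposited values are raw, whole-number read counts per gene. According to the submitters' processing notes, the authors used HISAT2, SAMtools, StringTie and featureCounts on GRCm38 for the first table; per the file headers, featureCounts 2.0.3 made the second and featureCounts 2.0.8 the third, after HISAT2 2.1.0, with no strand and without joining read pairs, so a pair can add 2 counts. The deposited gene length in bases is another value given by the authors' counting and was not used in a test.

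Symbols came from a list of gene names and exon overlaps from GENCODE vM21. The exon lengths behind the per-kb values were the deposited gene lengths of the third table. Each table was tested alone in R 4.3.3 with edgeR 4.0.16: filterByExpr (minimum count 10, minimum total 15), TMM factors, robust quasi-likelihood test, Benjamini-Hochberg adjustment over all genes, threshold 0.05. The third table was fitted on its 12 libraries with a mean per group. CPM are counts scaled to library totals. SE is the fold change over the root of the F statistic. Full values are given for Mki67, Top2a, Ccnb1, Cdk1, Pcna, Mcm2, Ccne1 and the D cyclins where a result turns on them and for up to 6 members per direction with the smallest p, other members by range or fold change, and related genes up to 4 per direction; a few further members are given as examples chosen after their values were seen. Alternatives were DESeq2 1.42.0, RLE scaling, no filter, a replicate block, fewer libraries and fewer genes. DESeq2 and the fit with no filter took every gene with any count, so their totals include scarce genes that the main fit did not test. The fit was tested on simulated counts. The members and all lists were chosen with earlier results of these data known. Intervals of counts are not given; the floor of 3 counts covers counting error only.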

Additional observations from a re-analysis of the deposited data

How the results depend on the processing

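The number of members called moved by over 1.5 times under these settings. With DESeq2 it was 38 after TLI/ATS, 8 and 2 for cKO against control in spleen and lymph node, and 4 for the interaction. Over all genes DESeq2 called 1324 of 26600 after TLI/ATS and 647, 204 and 507 of 36619 in the others. With no filter on low counts the number of members called was 2, 5, 2 and 3 in the same order. Over all genes it was then 390 of 26600 and 436, 170 and 364 of 36619. With genes of other cells left out the number of members called was 2 after TLI/ATS, against 327 of 16867 genes. With only the libraries compared it was 0 for cKO in lymph node, against 44 of 15652 genes. RLE scaling moved no count past that limit. After TLI/ATS and for EpoR+ against EpoR-, leaving out a library leaves a single library in its group. That library is assumed to vary like the other group, so the ranges given next for these comparisons cannot show whether calls hold. Without either TLI/ATS replicate the number called rose among all genes too, not only among the members. Leaving out a library gave 0 to 48 members after TLI/ATS, 0 to 4 for EpoR+ against EpoR-, 0 to 4 and 0 to 1 for cKO in spleen and lymph node, 23 to 31 and 22 to 26 for lymph node against spleen in control and cKO mice, and 0 to 1 for the interaction.

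A replicate block gave 19 members after TLI/ATS, against 1264 of 17236 genes, and 19 for EpoR+ against EpoR-, against 5347 of 15627 genes. It gave 0 for cKO in lymph node, where it ended the call of Ccnd2 (edgeR adjusted p = 0.067). Of the 19 for EpoR+ cells 2 were higher and 17 lower, against 3077 and 2270 of the 15627 genes. Same-numbered libraries deviated together there (r = 0.394). With 2 libraries a group both pairs give the same r by construction. The summed levels of EpoR+ were below those of EpoR- within each number. In the first table r was -0.0181. The labels do not say what a number marks, so the numbers were not taken as pairs.

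Log2 ratios of summed CPM also moved. With TMM library sizes, lymph node against spleen was 0.44 (S phase members) and -0.83 (mitosis members) in control mice and -0.14 (reversed) and -1.24 in cKO mice. As a mean of log2 CPM it was -0.37 for mitosis members in control mice, -0.00203 (reversed) for S phase members in cKO mice, and 0.56 for mitosis members in cKO against control spleen. Single members that changed sign were Ccnd1 after TLI/ATS without TLI/ATS replicate 1 (0.0281; -0.41 to 0.03 over the libraries left out) and Ttk in spleen cKO without spleen control replicate 1 (1.10; range over the libraries left out -1.995 to 1.10). Depth limits members with under 1 CPM in a library of the third table, such as Bub1, Ttk, Kif20a and Prc1.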
